A study of Mus musculus with 9 samples.

Results

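The genes described here are 51 genes of ribosome biogenesis, chosen by name. They were chosen with earlier results of these data known, so shares of members given below are not an independent check. All 51 were found among the 25759 gene rows of the expression table. Their products make ribosomes in the nucleolus: RNA polymerase I transcribes the ribosomal RNA precursor, small nucleolar ribonucleoproteins (snoRNPs) modify it, and assembly factors fold and cut it into the small and the large subunit. This work precedes protein synthesis and growth, and T cells are known to enlarge their nucleoli when they leave the resting state. The transcription factor MYC is known to activate many of these genes.

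RNA sequencing was done on 9 libraries of mouse CD4+ T cells, 3 in each of 3 groups, all from C57BL/6 mice aged 8 to 12 weeks that carry a Foxp3GFP reporter transgene. Naive wild-type (WT) cells were CD4+CD44-CD62+Foxp3GFP- cells, sorted without treatment. Activated WT cells came from mixed lymph node and spleen cells of WT mice kept for 3 days with the T cell mitogen ConA (2 ug/ml) and LPS (10 ng/ml), and were then sorted as CD4+CD44+CD62L-Foxp3GFP- cells. Activated BMPR1a knockout cells had the same culture and sort and came from BMPR1a/CD4cre conditional knockout mice, in which Cre is expressed from the Cd4 promoter. The deleted gene encodes a type I receptor through which bone morphogenetic proteins signal. There is no naive knockout group, and the labels do not say whether replicates are separate mice or separate cultures, so the p-values speak only of the spread among these libraries, which may be technical. Activation cannot be told apart from culture and from the change of sort gate, and in sorted bulk samples fewer cells of a type and less RNA per cell cannot be told apart either.

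Levels are given in FPKM, in which fragments are scaled by transcript length and by the size of the library, so that genes can be compared per length. Such values are relative to the rest of each library, and amounts of RNA per cell were not measured. Depth behind the values is unknown. Between 12922 and 13395 genes per library reached 1 FPKM. Naive libraries held Bmpr1a itself at 0.460, 0.311 and 0.336 FPKM, and it stood at 2.16, 2.92 and 1.40 in activated WT and at 0.957, 1.93 and 1.20 in the knockout libraries. The activated groups overlapped (difference -0.41 on the log2 scale, limma adjusted p = 0.261), and a value over all exons does not check a deletion of some of them. Markers of the labelled cell type were present: the summed level of 6 T cell genes, among them Cd3e, Cd4 and Lck, was 2950 to 3072 FPKM in naive, 2939 to 3335 in activated WT and 2941 to 3325 in knockout libraries. Several other lists moved with the groups. The 8 division markers summed to 9.04 to 14.0 FPKM in naive, 471 to 876 in activated WT and 765 to 932 in knockout libraries. Cd8a and Cd8b1 together were at 9.48 to 41.4, 147 to 230.4 and 219.6 to 279 FPKM in the same order. The 6 B cell markers, none of which was called in any comparison, were at 2.95 to 175, 132 to 167 and 122 to 185. The 8 myeloid markers summed to 108 to 848 FPKM in naive and 54.3 to 70.0 in the 6 activated libraries, where S100a8 and S100a9 were each listed at 0 in 2. Ncr1 of the NK cell list was listed at 0 in 2 activated WT libraries. The 5 NK cell markers summed to 11.5 to 48.2 FPKM in naive and 2.36 to 8.25 in activated libraries. Erythroid markers were lower after activation, with all 4 tested genes called lower (summed level 63.3 to 83.7 FPKM in naive, 0.804 to 0.945 in activated WT and 0.965 to 1.69 in knockout libraries). The part of these in the results below was not tested.

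All 51 genes were measured well above the filter of 0.5 FPKM, so none was lost from the tests. Their group means ran from 9.17 FPKM (Noc3l) to 641 (Npm1) in naive cells, from 3.16 (Utp20) to 1122 (Npm1) in activated WT cells and from 5.02 (Utp20) to 1232 (Npm1) in knockout cells. The median member stood at 26.8, 19.3 and 27.1 FPKM in the 3 groups. Npm1, which encodes the nucleolar chaperone nucleophosmin, was by itself more abundant per length than any other member in each group, followed by Nop56 in naive cells and by Ncl in both activated groups.

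**Figure D1:**
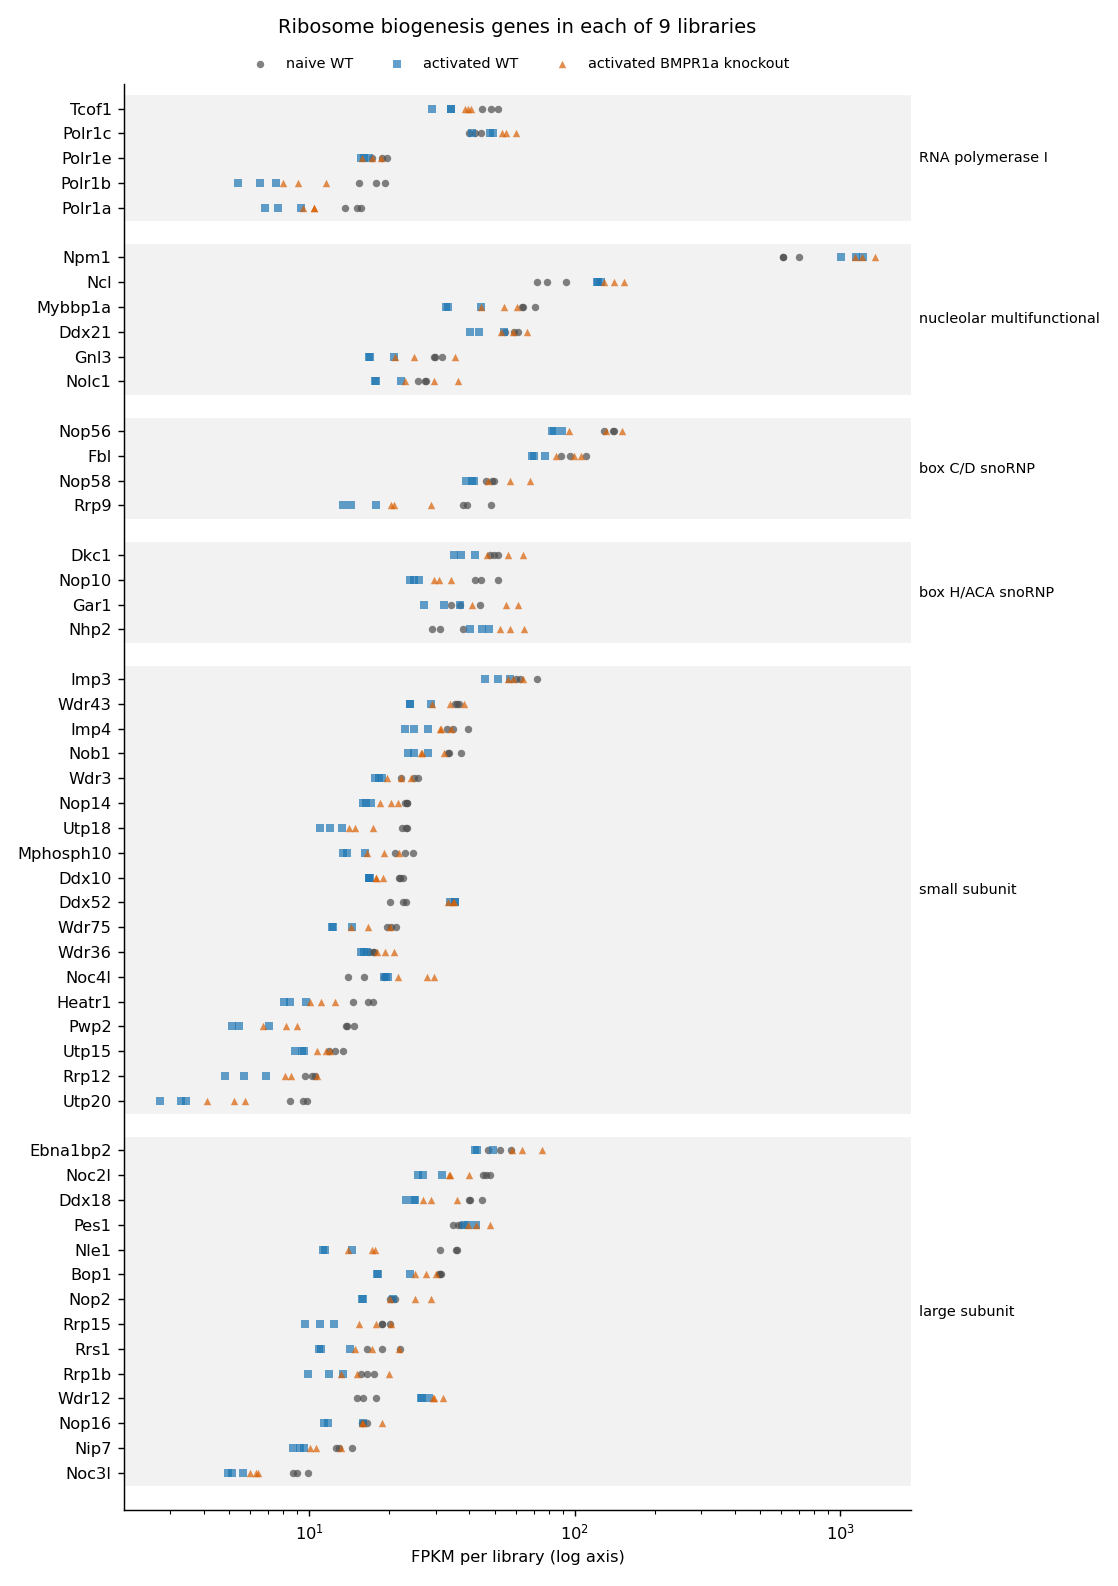
FPKM (log axis) of each of the 51 genes in each of the 9 libraries, ordered by role and naive level. Circles are naive WT, squares activated WT and triangles activated knockout libraries. Activated WT values lie to the left of naive values for most genes. Those of Npm1, Ncl, Nhp2, Ddx52, Wdr12 and Pes1, the last not called, lie wholly to the right. Knockout values mostly lie between or beyond the naive and activated WT values.

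The genes lie on 18 chromosomes, with at most 8 on 1 of them, and form no single genomic cluster. Small nucleolar RNA genes lie inside 6 of the members on the same strand, 19 in all: 5 in Nop56, 4 in Nop58, 3 each in Ncl, Gnl3 and Wdr43, and 1 in Dkc1. In Ncl, Gnl3, Nop56 and Nop58 some of them overlap annotated exons of the host, so their reads could be among those of the host. Promoter sequences are described next, and their part in the differences was not tested. RefSeq promoters (build GRCm38.p6, 250 bases before to 50 after the start) were found by symbol for 44 members and not for Npm1, Rrp12, Tcof1, Rrs1, Wdr36, Fbl and Bop1. The E-box CACGTG, the sequence that MYC and its partner MAX are known to bind, was in the promoter of 8 of 44 members (18.2%), of 8.09% of all 27025 genes with an entry and of 11.9% of the 9184 tested genes with one. It reads the same on both strands. Of those 8 members, Imp4, Utp20, Mybbp1a, Nle1, Utp18 and Wdr43 fell on activation and Nop2 and Pes1 were not called. Among all 44 members with a promoter entry 31 fell, 4 rose and 9 were not called, with the box in 6, 0 and 2 of these. The ETS-type motif CCGGAAG, searched on both strands, was in 17 of 44 (38.6%), against 9.93% of all entries and 21.8% of tested genes, and TATAAA, also on both strands, in 2 of 44 (4.55%), against 15.7% and 8.32%. No motif searched contains another. A match is a description of the letters only.

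The 8 E-boxes are printed in capitals, each in its promoter, 5′ to 3′ on the strand of the gene, with shorter windows where the box lies past the start site.
Imp4, chr1:34439648-34439773, plus strand: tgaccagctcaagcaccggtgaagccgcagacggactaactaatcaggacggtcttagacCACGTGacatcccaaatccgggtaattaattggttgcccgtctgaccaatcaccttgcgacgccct
Nop2, chr6:125131763-125131882, plus strand: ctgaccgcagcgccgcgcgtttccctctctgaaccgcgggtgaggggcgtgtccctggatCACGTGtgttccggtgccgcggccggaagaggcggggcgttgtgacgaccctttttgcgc
Utp20, chr10:88826765-88826789, minus strand: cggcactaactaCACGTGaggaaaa
Pes1, chr11:3963965-3963994, plus strand: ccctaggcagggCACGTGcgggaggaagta
Mybbp1a, chr11:72441355-72441376, plus strand: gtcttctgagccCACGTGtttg
Nle1, chr11:82908355-82908384, minus strand: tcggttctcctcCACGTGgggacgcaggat
Utp18, chr11:93885767-93885846, minus strand: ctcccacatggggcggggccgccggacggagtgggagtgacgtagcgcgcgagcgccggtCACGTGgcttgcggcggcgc
Wdr43, chr17:71616220-71616249, plus strand: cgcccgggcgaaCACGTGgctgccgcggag

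Activation came with lower FPKM of most of these genes, a fall relative to the rest of each library and not a measured fall per cell. Of 51 members, 36 fell and 5 rose in activated against naive WT cells, and 10 were not called. The 5 that rose were Npm1, Ncl, Nhp2, Ddx52 and Wdr12, and their direction turned under 1 scaling alone, to the same FPKM sum over tested genes, which moved the median of all genes by -1.167 (log2). Of the 15126 genes tested, 52.0% were called, 25.8% lower and 26.2% higher, while 70.6% of the members were lower and 9.80% higher. Tested genes reach down to a mean of 0.5 FPKM, under that of any member. Shares of members and of tested genes, here and below, are thus not matched for level. The median difference over the members was -0.47 on the log2(FPKM + 1) scale, beside -0.01 over all tested genes. The groups did not overlap for 45 members (59.4% of all tested genes). In 39 of them every activated library was below every naive one (29.8% of tested genes), and in 6 every one was above (29.6%). Differences are from limma's moderated test with Benjamini-Hochberg adjustment over all tested genes, are on the log2(FPKM + 1) scale, and are called at an adjusted p under 0.05.

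**Figure D2:**
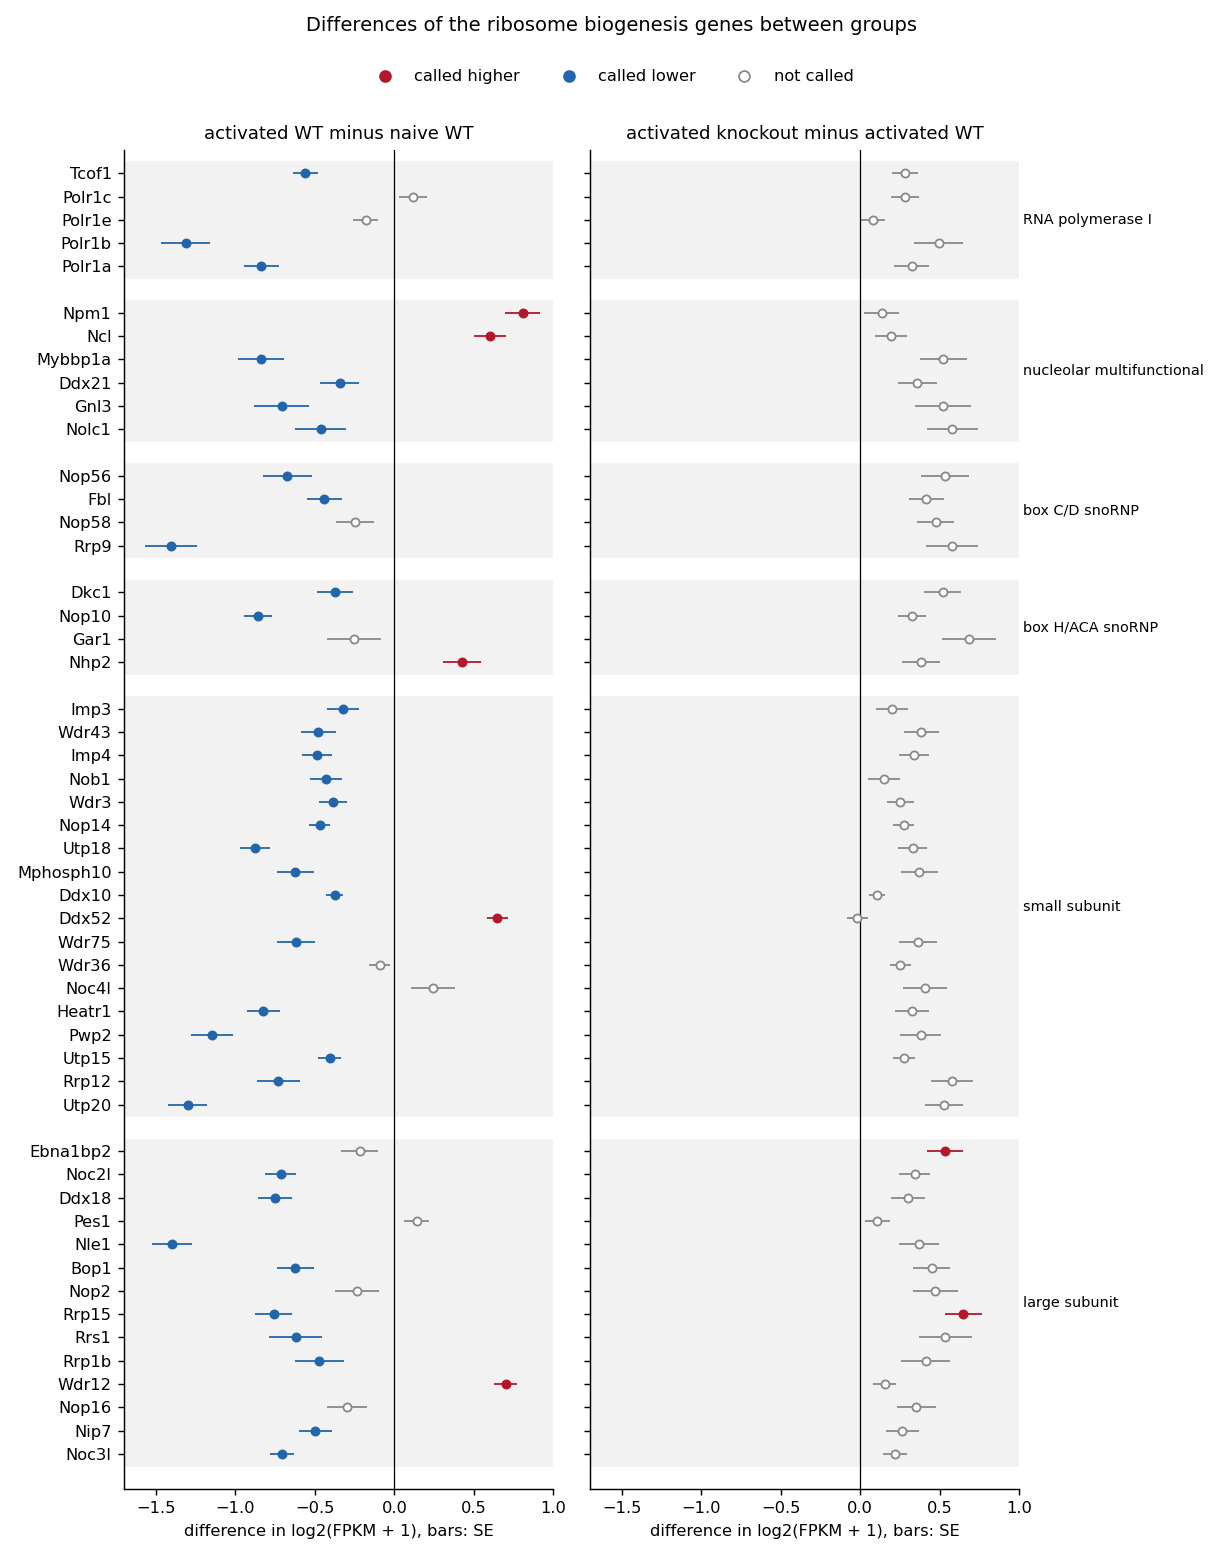
Difference in log2(FPKM + 1) with its SE for each member, activated WT minus naive WT on the left and activated knockout minus activated WT on the right. Filled points were called by limma (adjusted p under 0.05). On the left 36 points are called lower and 5 higher, the latter turning under the scaling to the same FPKM sum over tested genes. On the right 50 of 51 points lie above 0 and 2 are called.

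RNA polymerase I genes were among the falls. Polr1a (ENSMUSG00000049553, chromosome 6, 71909053 to 71984935, plus strand) encodes the largest catalytic subunit of the enzyme and was at 15.2, 15.7 and 13.6 FPKM in naive libraries and 6.80, 7.65 and 9.29 in activated WT libraries. No activated WT library reached the lowest naive one (difference -0.84, SE 0.110, limma adjusted p = 0.00053). Polr1b, the second-largest subunit (ENSMUSG00000027395, chromosome 2, 129100995 to 129126594, plus strand), went further, from 17.8, 19.3 and 15.4 to 5.38, 6.54 and 7.48 FPKM (difference -1.31, SE 0.156, limma adjusted p = 0.000318). Its highest activated value was well under its lowest naive one. Tcof1 encodes treacle, a nucleolar phosphoprotein needed for ribosomal RNA transcription, and fell from a mean of 48.3 ± 3.29 to 32.5 ± 2.98 FPKM (SD, n = 3). Polr1c, a subunit that RNA polymerases I and III share (42.3 ± 2.24 and 46.0 ± 4.49 FPKM), and Polr1e (18.5 ± 1.20 and 16.2 ± 0.574 FPKM) were not called. The catalytic subunits and the shared subunit thus differed in their values, a difference that was not tested in itself.

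The nucleolar proteins with several roles went both ways. Npm1 (ENSMUSG00000057113, chromosome 11, 33152287 to 33163206, minus strand) was at 611, 609 and 702 FPKM in naive and 1217, 1147 and 1003 in activated WT libraries. Every activated library was above every naive one (difference 0.81, SE 0.110, limma adjusted p = 0.000616). Ncl encodes nucleolin, an RNA-binding protein of the nucleolus (ENSMUSG00000026234, chromosome 1, 86344719 to 86359400, minus strand), and rose from 78.6, 72.4 and 92.5 to 122, 126 and 121 FPKM (difference 0.60, SE 0.10, limma adjusted p = 0.00162). The activated libraries lay close together and above all naive ones. Mybbp1a, a Myb-binding nucleolar protein, fell from 63.6, 63.4 and 71.1 to 33.2, 32.9 and 44.2 FPKM (difference -0.84, SE 0.147, limma adjusted p = 0.0021). Gnl3, which encodes the GTPase nucleostemin (30.3 ± 1.21 to 18.2 ± 2.35 FPKM), Nolc1, a chaperone of snoRNPs (26.8 ± 0.936 to 19.3 ± 2.60), and the RNA helicase gene Ddx21 (58.2 ± 3.40 to 46.0 ± 7.15) fell as well. The last pair passed narrowly, with limma adjusted p = 0.0404 and 0.0469, and with median-of-ratios scaling 2 of the 4 falls in this role were not called.

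The box C/D snoRNPs, which guide 2′-O-methylation of ribosomal RNA, had 3 of 4 genes lower. Rrp9, a protein that binds the snoRNA of this class needed for the first cuts of the precursor (ENSMUSG00000041506, chromosome 9, 106475963 to 106485424, plus strand), had with Nle1 the largest fall of all members on this log2 scale. It was at 37.9, 48.5 and 39.2 FPKM in naive and 13.4, 14.4 and 17.9 in activated WT libraries (difference -1.40, SE 0.165, limma adjusted p = 0.0003). No activated library came near the lowest naive one. The scaffold gene Nop56 (ENSMUSG00000027405, chromosome 2, 130274430 to 130279313, plus strand) was at 128, 139 and 141 and then 83.5, 81.8 and 89.9 FPKM (difference -0.67, SE 0.152, limma adjusted p = 0.00699). Fbl, which encodes the methyltransferase fibrillarin, was at 96.0, 88.9 and 111 and then 70.0, 69.0 and 77.4 FPKM (difference -0.44, SE 0.110, limma adjusted p = 0.0109). Nop58, the paralog and partner of Nop56, was at 46.3, 49.5 and 49.0 and then 41.1, 38.8 and 41.8 FPKM. Its groups did not overlap, yet the difference of -0.25 (SE 0.119) did not pass (limma adjusted p = 0.118).

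The 4 proteins of the box H/ACA snoRNPs, which convert uridine to pseudouridine, form 1 complex, and their genes moved apart. Nop10 (ENSMUSG00000027133, chromosome 2, 112261926 to 112263269, plus strand) fell from 44.5, 42.2 and 51.6 to 23.9, 24.8 and 25.9 FPKM (difference -0.86, SE 0.0887, limma adjusted p = 0.000163). Dkc1, the pseudouridine synthase dyskerin, was at 49.5, 51.6 and 48.1 and then 35.2, 37.4 and 42.0 FPKM (difference -0.37, SE 0.116, limma adjusted p = 0.0272). Both were lower in every activated library. Nhp2 rose from 31.1, 29.1 and 38.0 to 44.7, 40.2 and 47.5 FPKM (difference 0.42, SE 0.120, limma adjusted p = 0.0186). Gar1 overlapped between groups, at 37.0, 34.3 and 43.8 and then 27.2, 32.1 and 37.0 FPKM (limma adjusted p = 0.247). Nhp2 lost its call without naive WT replicate 1 or 2 or activated WT replicate 1 or 3, and Dkc1 without naive WT replicate 1 or 2 or activated WT replicate 1 or 2 (limma adjusted p 0.00293 to 0.0602 and 0.000317 to 0.0888 over the alternatives).

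Of 18 small-subunit genes, 15 fell and Ddx52 rose. Most of them encode parts of the processome, the large particle that forms on the nascent precursor and releases the small subunit. Utp20 (ENSMUSG00000004356, chromosome 10, 88746607 to 88826804, minus strand), a very large scaffold of that particle, was at 9.79, 9.51 and 8.45 and then 2.74, 3.29 and 3.45 FPKM (difference -1.30, SE 0.122, limma adjusted p = 0.000103). Pwp2, a WD-repeat protein of the same particle, was at 13.7, 13.9 and 14.8 and then 5.12, 5.43 and 7.08 FPKM (difference -1.15, SE 0.131, limma adjusted p = 0.000267). Utp18, another WD-repeat protein, was at 22.3, 23.4 and 23.2 and then 11.0, 11.9 and 13.3 FPKM (difference -0.88, SE 0.0935, limma adjusted p = 0.000188). In each of the 3 genes the highest activated library lay under the lowest naive one by a wide gap.

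The HEAT-repeat genes Heatr1 (16.2 ± 1.42 to 8.74 ± 0.868 FPKM) and Rrp12 (9.66, 10.3 and 10.5 to 4.81, 5.66 and 6.85) fell too, the latter by 0.73 (SE 0.133, limma adjusted p = 0.00255). Nop14 was tight in both groups, at 23.3, 23.0 and 23.3 and then 16.0, 16.3 and 17.1 FPKM (difference -0.47, SE 0.0673, limma adjusted p = 0.000783). The other falls in this role were those of Wdr43, Utp15, Wdr3, Wdr75, Imp3, Imp4, Mphosph10, Nob1, the endonuclease that makes the last cut of the small-subunit RNA, and Ddx10, an RNA helicase. Their differences ran from -0.62 (Wdr75, and Mphosph10 alike) to -0.32 (Imp3). The helicase gene Ddx52 went the other way, from 23.2, 20.1 and 22.6 to 35.4, 35.4 and 33.9 FPKM (difference 0.65, SE 0.0651, limma adjusted p = 0.000145). Wdr36 (17.2 ± 0.321 and 16.1 ± 0.459 FPKM) and Noc4l (16.4 ± 2.63 and 19.5 ± 0.313 FPKM) were not called.

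Of 14 large-subunit genes, 9 fell and Wdr12 rose. Nle1 (ENSMUSG00000020692, chromosome 11, 82900768 to 82908411, minus strand), a notchless protein on late precursors of the large subunit, was at 31.0, 35.9 and 35.8 and then 11.5, 11.3 and 14.5 FPKM. Every activated value was far under every naive one (difference -1.40, SE 0.126, limma adjusted p = 8.97e-05). The members of the trimer PES1, BOP1 and WDR12, which is needed to process the large-subunit RNA, gave 3 different outcomes. Bop1 fell from 31.1 ± 0.298 to 20.0 ± 3.42 FPKM (difference -0.62, limma adjusted p = 0.0027). Pes1 was not called (36.2 ± 1.18 and 40.0 ± 2.10 FPKM, limma adjusted p = 0.172). Wdr12 (ENSMUSG00000026019, chromosome 1, 60069785 to 60098645, minus strand) rose from 15.2, 17.9 and 15.9 to 28.2, 26.7 and 26.4 FPKM (difference 0.70, SE 0.0729, limma adjusted p = 0.000171).

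Rrp15, an assembly factor of early large-subunit particles, fell from 18.8, 18.9 and 20.1 to 9.64, 11.0 and 12.4 FPKM (difference -0.76, SE 0.117, limma adjusted p = 0.00111). The nucleolar complex genes Noc2l (46.5 ± 1.34 to 28.1 ± 3.19) and Noc3l (9.17 ± 0.630 to 5.22 ± 0.352), the helicase gene Ddx18 (41.7 ± 2.63 to 24.3 ± 1.03) and Rrs1, Rrp1b and Nip7 fell as well. Nop2, an RNA methyltransferase (20.6 ± 0.441 and 17.5 ± 2.76 FPKM), Nop16 (16.1 ± 0.389 and 13.0 ± 2.48) and Ebna1bp2 (52.3 ± 5.28 and 44.8 ± 3.83) were not called, and in each of them activated WT replicate 3 reached into the naive range.

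Over the alternatives, between 35 and 50 members were called in this comparison, and at least 35 of the 41 calls recurred in the same direction under each. Of 20 called members followed singly, 14 kept their call and direction under all 19 alternatives, and the others were the 5 that rose and Dkc1. Exons of 19 members overlap a gene on the opposite strand, among them Polr1a, Mybbp1a, Nop56, Rrp9, Dkc1, Nhp2, Nop14, Bop1, Pes1, Wdr12 and Nle1. The strand setting is not given in the sources used here, so reads of the partner could be among theirs. Annotated pseudogenes match transcripts of Npm1, Ddx21, Nop56, Fbl, Imp3, Pes1, Wdr12 and Ddx18 at 95% identity or more over at least 300 bases, and how such reads were shared is not given either, so these values are uncertain.

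**Figure D3:**
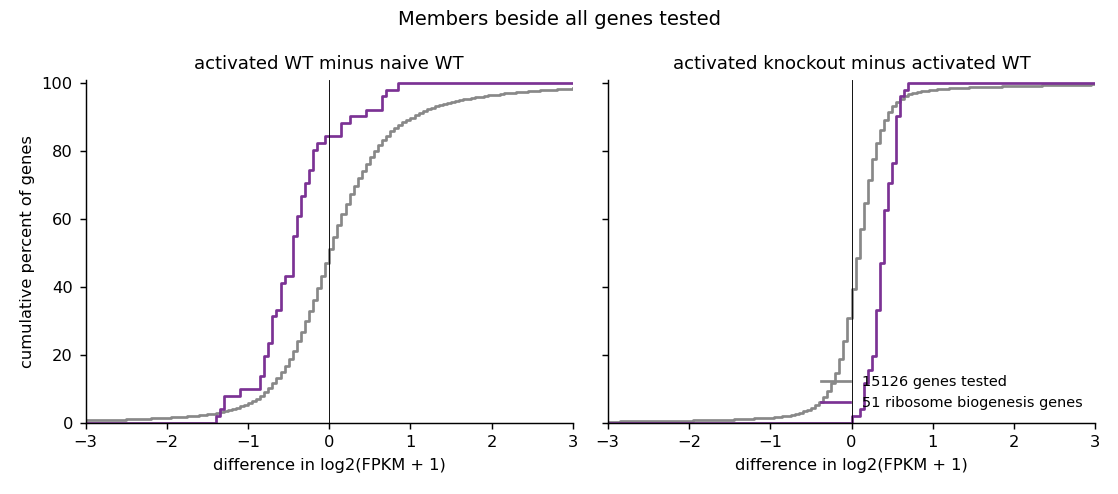
Cumulative percent of genes by difference in log2(FPKM + 1), for the 51 members and the 15126 tested genes. On the left (activated WT minus naive WT) the members' curve lies to the left of that of all genes around its median of -0.47. On the right (knockout minus activated WT) it lies to the right, around 0.36.

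The wider pathway was read from 5 lists of other biogenesis genes, of which 125 were in the table and 124 were tested. Like the members, these lists were chosen with earlier results of these data known, so they are not an independent check. On activation 66 of the 124 fell (53.2%) and 13 rose (10.5%), with a median of -0.31. Of all tested genes 25.8% were called lower and 26.2% higher. All 13 rises turned under the scaling to the same FPKM sum over tested genes and none under the 3 other scalings. Of 11 other polymerase I factors, 7 fell and 2 rose. Taf1a, a subunit of the promoter selectivity factor, had the largest fall (9.62 ± 1.29 to 3.88 ± 0.285 FPKM), and Polr1d, which polymerase III also uses, the largest rise (70.7 ± 8.04 to 124.5 ± 2.65). Of 35 other small-subunit genes 20 fell, most of all Nol6 (18.5 ± 0.906 to 9.56 ± 1.47 FPKM), and 1 rose, the kinase gene Riok1 (16.0 ± 0.861 to 27.7 ± 1.47). Of 47 other large-subunit genes 28 fell and 5 rose. The giant ATPase gene Mdn1, which drives remodelling of large-subunit precursors, went from 17.9, 20.8 and 18.6 to 2.36, 3.00 and 3.58 FPKM (difference -2.34, SE 0.126, limma adjusted p = 9.66e-06). Nop53 had the largest rise among them (226 ± 33.0 to 345 ± 41.3 FPKM). Of 22 tested genes of the exosome and of RNase MRP 10 fell, led by Rpp40, and 5 rose, led by Pop4. The 9 other snoRNP and snoRNP assembly genes had 1 call, the fall of Znhit6 (5.57 ± 0.319 to 2.88 ± 0.257 FPKM).

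**Figure D4:**
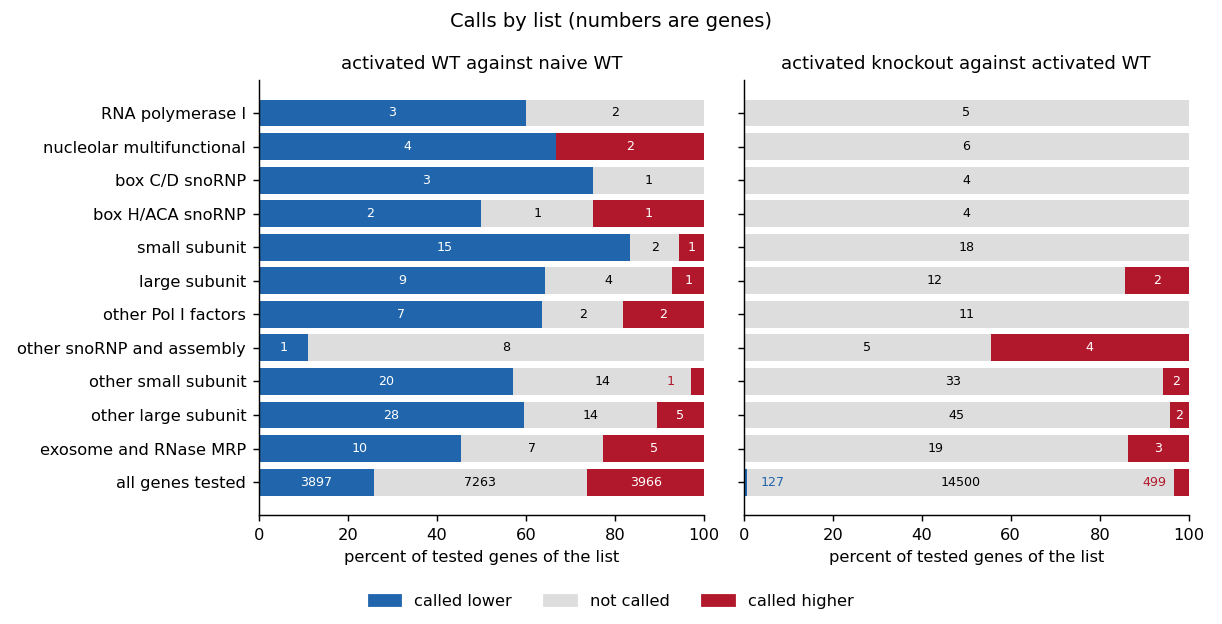
Percent of tested genes called lower, not called and called higher in each role group, each list of other biogenesis genes and all genes tested, for activated against naive WT (left) and knockout against activated WT (right). The numbers are genes. Called falls exceed called rises in each role group and biogenesis list on the left, as deposited. The rises in these lists vanish under the scaling to the same FPKM sum over tested genes. Among all genes tested 3966 are called higher and 3897 lower on the left. On the right the called members are the 2 of the large subunit.

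Myc was called neither on activation nor between the activated groups. It was at 47.4, 45.0 and 50.1 FPKM in naive, 51.4, 47.4 and 63.6 in activated WT and 57.0, 92.1 and 66.7 in knockout libraries. The difference was 0.17 on activation (SE 0.176, limma adjusted p = 0.437) and 0.39 between knockout and activated WT (SE 0.176, limma adjusted p = 0.221). Against naive cells Myc was called higher in the knockout (difference 0.56, SE 0.176, limma adjusted p = 0.0264), a direction that turned under the scaling to the same FPKM sum (-0.363). Of 7 tested genes of the MYC network 5 rose on activation, where 26.2% of all tested genes were called higher. The 5 were the MYC antagonists Mxd1, Mxd3, Mxd4, Mxi1 and Mnt, of which Mxd4 and Mnt turned under the scaling to the same FPKM sum. Mxd3 led with 0.667 ± 0.189 and 19.7 ± 5.60 FPKM. The part of this network in the differences of the members was not tested.

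In the knockout the members stood higher than in activated WT cells, though few differences passed the test. The fitted difference was above 0 for 50 of 51 members, where 60.5% of all tested genes were above 0, and Ddx52 was the exception at -0.02. The median over members was 0.36 on the log2(FPKM + 1) scale, beside 0.06 over all tested genes. With median-of-ratios scaling these medians were 0.28 and 0.00. Every knockout library was above every activated WT library for 38 of 51 members (74.5%, and 22.8% of all tested genes), and the reverse held for none (8.36%). limma called 2 members higher (3.92%) and none lower. Of all tested genes 4.14% were called, 3.30% higher and 0.840% lower, so the share called higher was near that of all genes. An unadjusted p under 0.05 was found for 42 members and for 25.0% of all tested genes. Members kept much the same order of libraries within each activated group, as given below. Counts over members are therefore not independent of each other and rest on the same 6 libraries.

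The 2 members called were both large-subunit factors, but that role did not have the largest differences. Its median was 0.361, beside 0.504 for box C/D, 0.452 for box H/ACA and 0.44 for the nucleolar proteins with several roles. Rrp15 (ENSMUSG00000001305, chromosome 1, 186720978 to 186749358, minus strand) was at 9.64, 11.0 and 12.4 FPKM in activated WT and 15.4, 20.3 and 17.9 in knockout libraries. All knockout values were above all activated WT values (difference 0.65, SE 0.117, limma adjusted p = 0.0338). Ebna1bp2, a nucleolar protein of early large-subunit particles (ENSMUSG00000028729, chromosome 4, 118620799 to 118627776, plus strand), was at 42.9, 42.3 and 49.2 and at 57.9, 75 and 63.5 FPKM (difference 0.53, SE 0.116, limma adjusted p = 0.0483). Neither call was stable. Rrp15 was called under 9 and Ebna1bp2 under 5 of 19 alternatives, and both were lost with median-of-ratios or quantile scaling, with the same FPKM sum over tested genes, with only the 6 libraries compared, and without naive WT replicate 1, activated WT replicate 1 or 2 or knockout replicate 2 or 3. Ebna1bp2 was also lost without a filter and without naive WT replicate 2 or 3 or activated WT replicate 3. Over the alternatives the limma adjusted p ran from 0.00532 to 0.129 for Rrp15 and from 0.0064 to 0.172 for Ebna1bp2. Without knockout replicate 1, 16 members were called, and with array quality weights 40, all higher.

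The uncalled members with the smallest p whose groups did not overlap came from several roles. Dkc1 was at 35.2, 37.4 and 42.0 FPKM in activated WT and 46.6, 63.8 and 56.1 in knockout libraries (difference 0.52, SE 0.116, limma adjusted p = 0.0507). Gar1, its partner in the H/ACA complex, had the largest difference of all members, 27.2, 32.1 and 37.0 against 41.2, 61.1 and 55.3 FPKM (difference 0.69, SE 0.171, limma adjusted p = 0.0638). Rrp12 was at 4.81, 5.66 and 6.85 and at 8.09, 10.7 and 8.52 FPKM (difference 0.58, SE 0.133, limma adjusted p = 0.0533). These 3 genes share the pattern that knockout replicate 1 lay closest to the activated WT libraries.

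Utp20 was at 2.74, 3.29 and 3.45 FPKM in activated WT and 4.12, 5.71 and 5.22 in knockout libraries (difference 0.53, SE 0.122, limma adjusted p = 0.0538). Nop14 was at 16.0, 16.3 and 17.1 and at 18.4, 21.6 and 20.4 FPKM (difference 0.27, SE 0.0673, limma adjusted p = 0.0622). Nop58 was at 41.1, 38.8 and 41.8 and at 47.0, 67.6 and 57.3 FPKM (difference 0.47, SE 0.119, limma adjusted p = 0.0647). Its partners gave 83.5, 81.8 and 89.9 against 94.9, 151 and 132 FPKM for Nop56 (limma adjusted p = 0.0854) and 70.0, 69.0 and 77.4 against 84.8, 106 and 99.6 for Fbl (limma adjusted p = 0.0734). These 3 box C/D genes had the same order of knockout libraries, with replicate 1 lowest and replicate 2 highest, and differ in this from Rrp9, whose lowest was replicate 3 (20.9, 28.8 and 20.4 FPKM).

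Npm1 and Ncl, the most abundant members in both activated groups, had differences under the median member's. Npm1 overlapped between groups, at 1217, 1147 and 1003 FPKM in activated WT and 1138, 1353 and 1205 in knockout libraries (difference 0.14, SE 0.110, limma adjusted p = 0.492). Ncl was at 122, 126 and 121 and at 129, 154 and 140.4 FPKM, with no overlap (difference 0.19, SE 0.10, limma adjusted p = 0.279). Polr1a was at 6.80, 7.65 and 9.29 and at 9.44, 10.5 and 10.4 FPKM (difference 0.32, SE 0.110, limma adjusted p = 0.124). Polr1e, Ddx52, Npm1, Nob1, Pes1, Ddx21, Imp3, Wdr75, Pwp2, Nop2, Nop16, Rrp1b and Nle1 were the 13 members whose libraries overlapped between the activated groups.

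Within each activated group the members kept much the same order of libraries. Activated WT replicate 3 was the highest of its group for 45 of 51 members, where it was the highest for 39.7% of all tested genes. Knockout replicate 2 was the highest of its group for 46 members (31.1% of tested genes) and knockout replicate 1 the lowest for 43 (38.4%). In the naive group no library stood out as much: replicate 3 was the highest for 28 members (44.3% of tested genes), and the lowest was replicate 1 for 21, replicate 2 for 19 and replicate 3 for 11. Relative to naive means, the median member was at -0.512, -0.537 and -0.363 (log2) in activated WT replicates 1, 2 and 3. In knockout replicates 1, 2 and 3 it was at -0.302, 0.001 and -0.144. The medians of the activated groups did not overlap, with activated WT replicate 3 and knockout replicate 1 nearest to each other, and knockout replicate 2 lay within the naive range. In the same libraries the division markers summed to 876, 640.2 and 471 FPKM (activated WT) and 765, 919 and 932 (knockout), so the activated WT library with the highest members had the lowest division markers, while in the knockout the library with the lowest members had the lowest. The part of this in the differences was not tested.

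**Figure D5:**
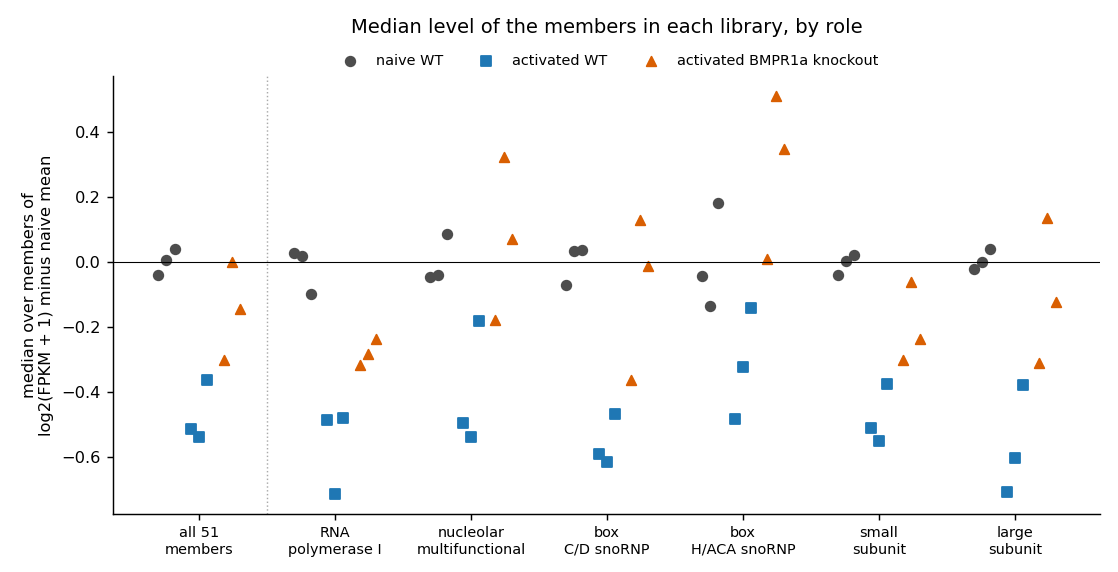
Median over members of log2(FPKM + 1) minus the gene's naive mean, for all 51 genes and for each role, with 1 point per library. For all members the activated WT libraries lie between -0.54 and -0.36, the knockout libraries between -0.30 and 0.00, and the naive libraries between -0.04 and 0.04.

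Among the 124 other biogenesis genes tested, 11 were called higher in the knockout (8.87%) and none lower. Of all tested genes 3.30% were called higher and 0.840% lower. The median was 0.28, beside 0.06 over all tested genes. With median-of-ratios or quantile scaling none of the 124 was called (medians 0.21 and 0.19). The snoRNP assembly list held 4 of these among 9 genes, Ruvbl1, an ATPase of the complex that assembles box C/D particles (21.4 ± 2.31 and 30.7 ± 2.64 FPKM, difference 0.50, limma adjusted p = 0.0424), and Snu13, Naf1 and Shq1, named after their values were seen. Naf1 and Shq1 are assembly factors of H/ACA particles. Pno1 (13.3 ± 1.10 and 19.8 ± 2.29 FPKM), Pa2g4 (92.4 ± 1.49 and 139 ± 24.2) and the exosome nuclease gene Dis3 (6.55 ± 0.231 and 10.4 ± 1.91) had the largest differences of their lists. None of the 11 other polymerase I factors was called.

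Knockout cells were also set beside naive cells, which differ from them in both genotype and activation. That comparison shares libraries with both others. Of 51 members 16 were called lower and 9 higher, where 25.1% and 31.8% of all tested genes were (56.9% in all), and the median was -0.135 beside 0.04 over all tested genes. The lowest against naive cells were Nle1 (difference -1.03, SE 0.126, limma adjusted p = 0.000295), Rrp9 (-0.83), Polr1b (-0.82) and Utp20 (-0.78). The highest were Npm1 (0.94), Wdr12 (0.85), Nhp2 (0.81) and Ncl (0.79), and with the same FPKM sum over tested genes 8 of the 9 turned, all but Npm1. The calls of Ebna1bp2 (higher) and Nop14 (lower) held under 7 and 11 of the 19 alternatives. For Nop56 the difference was -0.14 (SE 0.152, limma adjusted p = 0.461), for Fbl -0.03 (SE 0.110, limma adjusted p = 0.859), for Dkc1 0.15 (SE 0.116, limma adjusted p = 0.313) and for Rrp15 -0.11 (SE 0.117, limma adjusted p = 0.439). The naive and knockout libraries of these 4 genes overlapped.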

How the data were processed

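FPKM values per gene were deposited by the authors as 1 table with a column per library, made with TopHat2, Cufflinks and Cuffdiff on GRCm38, per the submitters' processing notes. Tool versions, annotation, strand and multiple mapping were not given in the sources used here. Read depth is unknown. Columns were matched to samples by description and title, and 24876 of 25759 identifiers to symbols. Positions and types come from GENCODE M21 (GRCm38). Genes averaging 0.5 FPKM or more (15126) were tested on log2(FPKM + 1), a scale that understates changes of low genes. limma 3.58.1 (R 4.3.3) was fitted to the 9 libraries together, with a mean per group and an intensity trend. The fit was tested on simulated data with independent noise in each gene, which cannot speak of shifts that genes of a library share.

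The members, role groups and lists were chosen with earlier results of these data known. Named in full were the called members with the largest rises (8 at most; 5 rose) and the 8 with the largest falls on activation, the largest call of each role, members called in the knockout, the 6 uncalled ones with the smallest p and no overlap, and 7 core proteins, and from each pathway list the largest called rise and fall. Groups are means ± SD of 3 libraries. The 19 alternatives are scalings, filters, pseudocount, weights, a replicate block, fewer libraries and leaving out each library. Scaling to the sum over protein-coding genes was chosen after seeing the data. The values of 1 marker gene are not reported here.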

Additional observations from a re-analysis of the deposited data

How the results depend on the processing

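Members called on activation numbered 41 as deposited and 36 of these fell. Between 35 and 42 were called when 1 library was left out, and the direction of the median over members held in all 3 comparisons under each alternative. Scaling to the same FPKM sum over tested genes stood apart. A row with no symbol held 42.8% to 48.6% of its sums in activated WT libraries. That row held 28.7% to 42.6% in knockout and 5.17% to 25.8% in naive libraries. Protein-coding genes summed to 533140 to 595890 FPKM per library, where tested genes summed to 3445300 to 13113000. This scaling moved the median of all genes by -1.167 on activation and by 0.356 between knockout and activated WT. Between knockout and naive cells the median moved by -0.794. The members' medians were then -1.784, 0.757 and -1.041, that is -0.608, 0.343 and -0.291 relative to all genes. Calls over all genes on activation were 11998 (5.97% higher, against 50.4% of 7863 as deposited), and members called between knockout and naive cells 42, against 25. Of all calls between knockout and naive cells 55.9% were higher as deposited, 43.9% with quantile normalization and 12.4% with that sum. On activation Npm1 turned to -0.571, Wdr12 to -0.618, Ddx52 to -0.686, Ncl to -0.763 and Nhp2 to -0.92. Between knockout and naive cells Wdr12 turned to -0.045, Ddx52 to -0.279, Ncl to -0.136, Nhp2 to -0.109 and Ebna1bp2 to -0.609.

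The count in knockout against activated WT depended on the settings. As deposited 2 members and 626 genes (79.7% higher) were called. There were 0 members and 306 genes (54.2% higher) with median-of-ratios scaling, 0 and 324 (56.5% higher) with quantile normalization, 0 and 64 (93.8% higher) with the same sum over tested genes, and 0 and 92 with only the 6 libraries compared. With no filter there were 1 and 416, with a mean of at least 2 FPKM 4 members, and with array quality weights 40 and 3851. Leaving out 1 library gave 0 to 16 members and 64 to 1040 genes. The cause was not tested.

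The replicate block gave 40 members on activation, 0 members and 58 genes between knockout and activated WT, where it ended the calls of Rrp15 and Ebna1bp2 (limma adjusted p = 0.0698 and 0.0984), and 23 members between knockout and naive cells. The numbers were not taken to pair the samples, since deviations of same-numbered libraries correlated only weakly, at 0.0027 to 0.054 (-0.0682 to 0.0375 for unlike numbers). In 12 of 18 cases a library correlated best with its own number, a hint from the data and not from the design.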
